A study of Mus musculus with 2 samples.

Results

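At E11.5, 122 cells of the inter-limb somites held many transcripts of Acta1, the skeletal muscle α-actin, and these Acta1-high cells are described here. They were chosen by 2 counts: at least 30 unique molecular identifiers (UMIs, random tags that let copies of one transcript be counted once) of Acta1 and at least 5 of Myog, the transcription factor that starts muscle differentiation. They made up 1.32% of the 9223 E11.5 cells kept (95% Clopper-Pearson interval 1.10 to 1.58%), of 18887 kept cells in the whole series. The comparison cells, 222 in number, came from the same library and held at least 20 Myog UMIs and fewer than 10 of Acta1. They are called Myog-high Acta1-low cells below.

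The mice were wild-type C57BL/6 embryos without a transgene or treatment, and 1 library was made at E9.5 and 1 at E11.5, each from the somites of 3 pooled embryos after trypsin dissociation. Sequencing gave 136655763 UMIs over 10167 barcodes at E11.5 and 149368952 UMIs over 10121 barcodes at E9.5. The libraries had 30 barcodes in common, 2 of them among the Acta1-high cells. Cells with at least 1000 and under 6500 genes and under 15% mitochondrial UMIs were kept. Cells of 1 library are not replicates, so no test was made, and every interval below covers counting error only.

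A myocyte is a muscle cell that has stopped dividing and is about to fuse, or is fusing, into a multinucleated fibre. Its contractile unit, the sarcomere, is built from thin filaments of actin, thick filaments of myosin, and the Z disc, where thin filaments are anchored by α-actinin and titin is attached. Skeletal muscle also assembles membranes that release calcium, a cluster of acetylcholine receptors under the nerve ending, and enzyme isoforms of its own for fuel use. MyoD, Myf5, myogenin and Mrf4 (Myf6) are the E-box-binding factors that switch these genes on, together with Mef2 factors.

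To show the regions from which the marker genes of these cells are read, the 250 bases before the RefSeq start (GRCm38.p6) of Acta1, Mylpf, Tnnc2 and Actn2 follow, 5′ to 3′ on the gene's strand. Capitals mark E-boxes (CANNTG, the same on both strands) and, in Acta1, the CArG box, the site of serum response factor.
Acta1, chr8:123894776-123895025, minus strand: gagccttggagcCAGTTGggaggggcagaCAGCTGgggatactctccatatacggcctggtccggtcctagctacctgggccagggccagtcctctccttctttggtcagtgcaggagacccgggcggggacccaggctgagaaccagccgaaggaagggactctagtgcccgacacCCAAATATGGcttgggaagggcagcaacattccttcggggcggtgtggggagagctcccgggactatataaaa
Mylpf, chr7:127211358-127211607, plus strand: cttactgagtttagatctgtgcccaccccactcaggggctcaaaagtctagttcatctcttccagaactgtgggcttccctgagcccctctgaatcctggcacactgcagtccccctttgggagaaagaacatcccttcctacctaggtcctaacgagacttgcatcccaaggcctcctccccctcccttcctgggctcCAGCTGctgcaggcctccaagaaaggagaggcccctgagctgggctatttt
Tnnc2, chr2:164779735-164779984, minus strand: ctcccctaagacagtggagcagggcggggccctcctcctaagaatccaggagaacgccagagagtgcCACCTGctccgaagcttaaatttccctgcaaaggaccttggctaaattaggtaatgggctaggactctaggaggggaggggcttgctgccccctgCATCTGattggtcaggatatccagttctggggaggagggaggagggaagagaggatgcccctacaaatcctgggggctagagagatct
Actn2, chr13:12340733-12340982, minus strand: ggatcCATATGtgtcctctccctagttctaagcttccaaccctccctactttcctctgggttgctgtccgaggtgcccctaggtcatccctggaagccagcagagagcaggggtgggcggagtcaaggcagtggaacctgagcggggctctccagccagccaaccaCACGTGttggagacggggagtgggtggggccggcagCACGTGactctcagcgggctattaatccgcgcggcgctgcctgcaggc
Every one of the 4 windows held an E-box. The CArG box of Acta1 began 73 bases before the start, its E-boxes 238 and 221 bases before it. The E-box of Mylpf began 51 bases before the start, those of Tnnc2 at 183 and 88, and those of Actn2 at 245, 84 and 48. No motif overlapped another. E-boxes were common: 66.2% of 32851 RefSeq promoter windows of this length held at least 1, against 1.47% with a CArG box and 2.92% with a MEF2 site. Of the 57 genes of the sarcomere lists below that were at least 2-fold higher in the Acta1-high cells, 46 had a window, and 39 of these genes (84.8%) held an E-box, 6 a CArG box and 9 (19.6%) a MEF2 site in at least 1 window. Counted by gene in the same way, 69.3% of all genes in the table and 58.5% of those compared below held an E-box, and 3.42% and 2.07% a MEF2 site. These matches are descriptions of letters, not of binding.

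Acta1 ranged from 30 to 773 UMIs per Acta1-high cell, with a median of 110.5, and Myog from 6 to 166 with a median of 37. In the Myog-high Acta1-low cells Acta1 ranged from 0 to 9 with a median of 0, and Myog from 20 to 176 with a median of 60. These values chose the cells and are given as a description, as are all other differences between the classes. The 12 cells just inside the limit (30 to 39 Acta1 UMIs) held 77 to 406 Mylpf UMIs with a median of 206.5, and the 12 just outside it (20 to 29) held 40 to 321 with a median of 171. The medians of Tnnc2 were 68 and 31 UMIs in these cells and those of Actn2 14.5 and 5.5, and the ranges of all 3 genes overlapped across the limit. A further 10 cells met both UMI limits but had 6521 to 7537 genes and were removed by the cap on genes, 5 of them called doublets by Scrublet, and 2 kept cells had at least 30 Acta1 UMIs with only 1 or 2 of Myog.

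**Figure D1:**
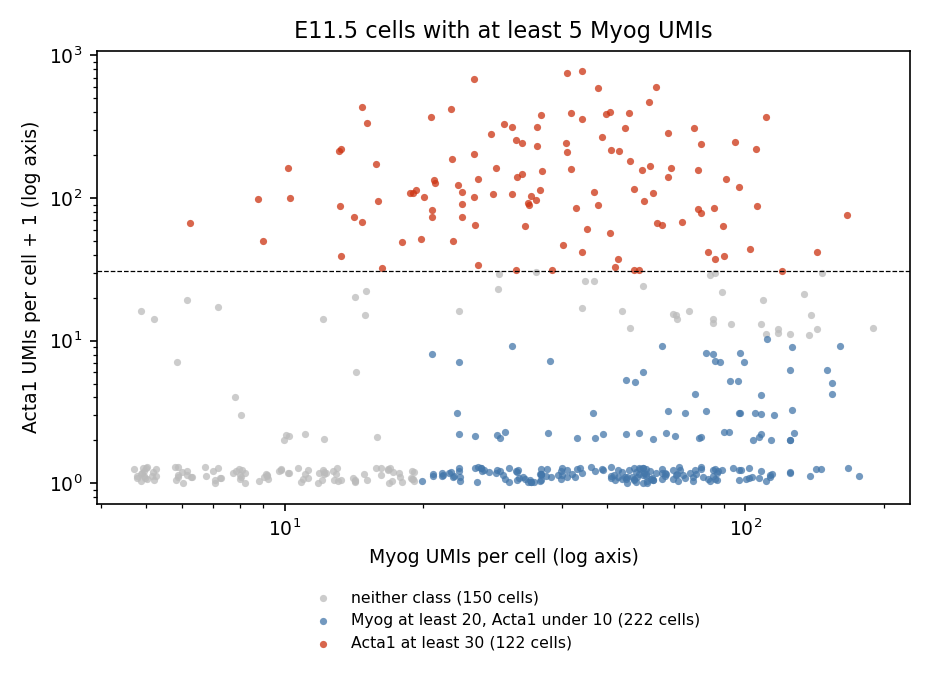
Acta1 against Myog UMIs per cell (both axes logarithmic, 1 added to Acta1, points shifted slightly at random) for the E11.5 cells with at least 5 Myog UMIs. Above the dashed line lie the 122 Acta1-high cells, while the 222 Myog-high Acta1-low cells lie at the bottom right and 150 cells belong to neither class.

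The Acta1-high cells held 2740218 UMIs in all, with 3795 to 44480 per cell and a median of 20646. The comparison cells held 4285508, with 4394 to 42859 per cell and a median of 17327. The share of mitochondrial UMIs was 4.19% against 3.78%. Scrublet called 12 of the 122 cells (9.84%) and 15 of the 222 (6.76%) doublets. At E9.5 the same rule found 5 cells, 0.0517% of the 9664 kept (interval 0.0168 to 0.121%). Somite age and library cannot be told apart between the stages.

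The marker genes of the label are given here as a description. Across the groups by Acta1 count below, Mylpf and Tnnc2 rose with Acta1, which chose the cells. Mylpf, the light chain of fast skeletal myosin, had 77 to 1373 UMIs per Acta1-high cell with a median of 331.5, and 0 to 288 with a median of 3 in the comparison cells. Tnnc2, the calcium-binding subunit of fast troponin, had 13 to 343 with a median of 97.5, against 0 to 64 with a median of 0. Actn2, the α-actinin of the Z disc, had 0 to 58 with a median of 19, against 0 to 25 with a median of 0. All 3 genes were detected in nearly every Acta1-high cell (100%, 100% and 99.2%), although their ranges overlapped with those of the comparison cells. After each cell was thinned at random to 5000 UMIs, Tnnc2 was seen in 100% of Acta1-high, 20.9% of comparison and 1.17% of Sox2-positive cells. The latter are 261 cells of the library with at least 3 UMIs of Sox2, a neural tube gene, and none of Myog, with a median of 12683 UMIs, and they served as the background of free RNA.

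Levels are given below as UMIs per 1000000 UMIs of a class (UPM), and differences as the log2 ratio of the UPM of the Acta1-high to that of the Myog-high Acta1-low cells, so that 1 is a 2-fold difference. Genes were counted when they had at least 100 UMIs in both classes together, leaving out Acta1 and Myog. A gene scarce in one class can reach that minimum only through the other. Of 6656 such genes, 622 were at least 2-fold higher (9.34%) and 639 at least 2-fold lower (9.6%) in the Acta1-high cells, with a median log2 ratio of -0.16. With that median subtracted, 745 were higher and 469 lower. The shares of 9.34% and 9.6% are the background for each list count below. The transcripts are read at their 3′ ends, so levels of different genes are not compared here, except to name those with the most UMIs in a list.

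The sarcomere genes that reached the UMI minimum were higher almost without exception. Some reached it only through the Acta1-high cells, such as Tcap with 1276 UMIs against 11. Listed genes under the minimum were mixed. Myom2 was at least 2-fold higher (67 UMIs against 1), while Myh1 (41 against 58) and Tmod4 (0 against 4) were not. Of 61 genes counted in the lists of thin filament, thick filament, Z disc and sarcomere chaperones, 57 were at least 2-fold higher and 0 lower, with a median log2 ratio of 2.90. Together the 84 genes of these lists took 10.2% of all UMIs of the Acta1-high cells, from 2.56% to 18.4% per cell, and 1.87% in the comparison cells. Acta1, which chose the cells, is one of them, and without it the share was 9.43% (2.43% to 16.1% per cell) against 1.87%. The plot of gene lists shows these lists at its top, with the DNA replication list alone far on the other side.

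**Figure D2:**
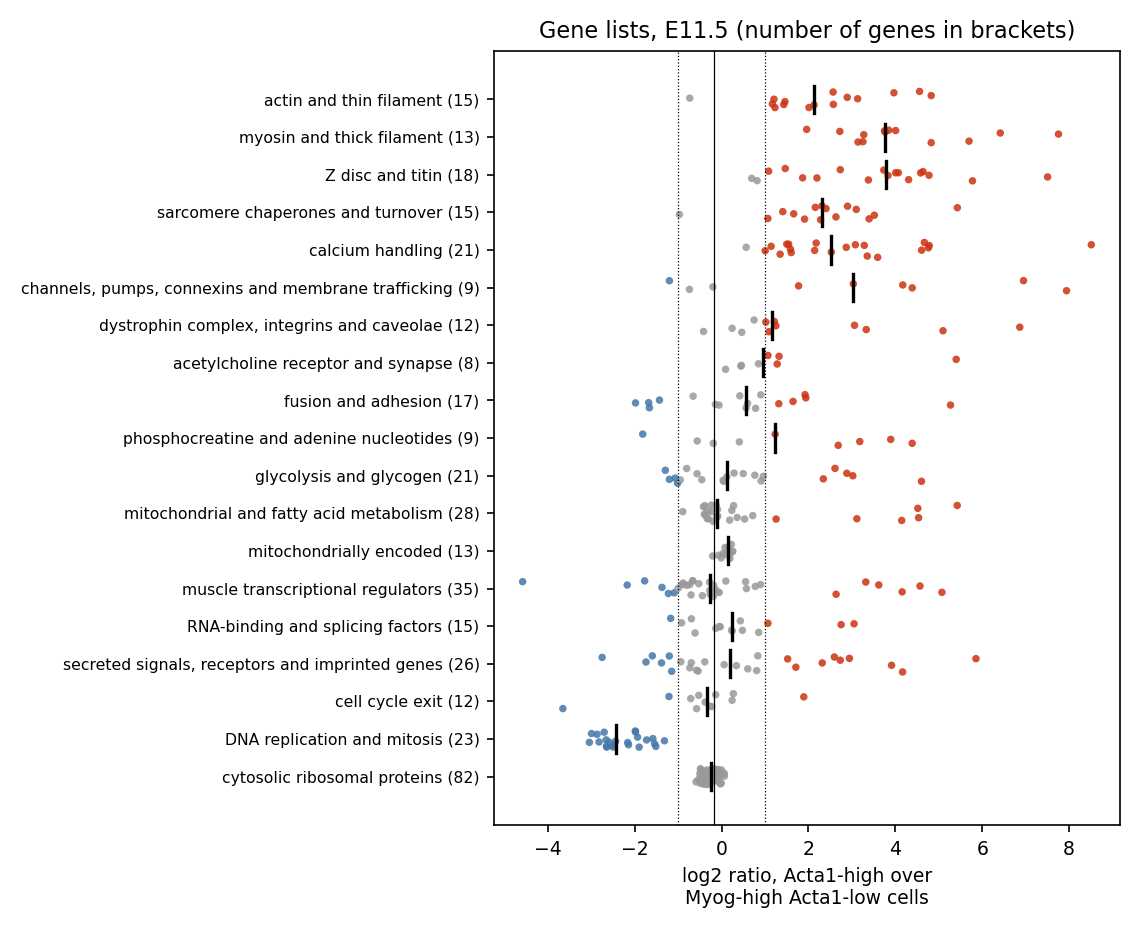
Log2 ratio of each gene counted (points) in 19 gene lists, Acta1-high over Myog-high Acta1-low cells, with the median of each list as a thick bar, the median of all 6656 genes as the thin solid line and the 2-fold limits dotted. Red points are at least 2-fold higher, blue ones at least 2-fold lower. All 23 replication and mitosis genes lie below the lower limit.

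In the thin filament, 14 of 15 genes counted (of 19 listed) were at least 2-fold higher. Actc1, the cardiac α-actin that embryonic skeletal muscle also makes, had 34 to 638 UMIs per cell (median 187) in the Acta1-high and 0 to 260 (median 61.5) in the comparison cells. Its level was 8757 UPM (interval 8647 to 8868) against 3798, a log2 ratio of 1.21 (1.18 to 1.23). The comparison cells thus already held much Actc1, and the size of the difference varied widely over the list. The troponin C genes Tnnc1, of slow and cardiac fibres, and Tnnc2 stood at log2 ratios of 4.56 (4.46 to 4.65) and 4.83 (4.72 to 4.93). Tropomyosin 2 (Tpm2) stood at 2.13, the slow troponins Tnni1 and Tnnt1 at 2.89 and 1.43, the fast Tnnt3 at 3.97 and nebulin (Neb), which runs along the thin filament, at 2.57. The exception was Tpm3, a tropomyosin with many non-muscle forms, at -0.73 (-0.93 to -0.54). In cells without a UMI of the division genes Mki67, Top2a and Cdk1, the Actc1 ratio was 0.52 and that of Acta2, the smooth muscle actin that early skeletal muscle also makes, 0.80 against 1.46 in all cells. Reads of the near-identical actins can be hard to assign to one gene.

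In the thick filament, 13 of 13 genes counted (of 22 listed) were at least 2-fold higher, with a median of 3.77. Mylpf stood at 17764 UPM (17606 to 17922) against 1105, a log2 ratio of 4.01. The other light chains Myl1 and Myl4 reached 3.85 and 4.83. Of the heavy chains, embryonic Myh3 had 2 to 178 UMIs per Acta1-high cell (median 53.5) against 0 to 53 (median 1), a log2 ratio of 3.27 (3.18 to 3.36). Perinatal Myh8 was at 286 UPM against 21.2 and slow Myh7 at 358 against 4.20, log2 ratios of 3.75 and 6.41. Slow and fast genes were thus both higher in the same class. Adult fast Myh4 had 138 UMIs against 1, while adult fast Myh2 had 4 against 1 and Myh1 41 against 58, both under the minimum. Myh4, Myh8 and Myh3 are of like sequence and lie in 1 cluster on chromosome 11, and the assignment of reads among them is uncertain. Myl2, the slow ventricular light chain, had 70 UMIs against 0, under the minimum of 100.

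The Z disc list had 16 of 18 genes at least 2-fold higher (of 23 listed), with a median of 3.78. Titin (Ttn), the elastic filament of the sarcomere, had 0 to 376 UMIs per Acta1-high cell with a median of 84, and 0 to 150 with a median of 12 in the comparison cells. Its log2 ratio was 2.19 (2.14 to 2.25), while that of its small Z disc partner telethonin (Tcap) was 7.50 (6.66 to 8.51) and that of Actn2 4.58 (4.35 to 4.82). Ttn was thus present in most comparison cells (93.2%), Tcap in 2.25%. Ldb3 and Myot, further Z disc proteins, stood at 5.77 and 4.64, and the intermediate filament desmin (Des) at 1.87. Filamin C (Flnc) and the fast α-actinin Actn3 were within 2-fold, at 0.69 and 0.82.

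Among chaperones and turnover factors, 14 of 15 genes (of 20 listed) were at least 2-fold higher. Unc45b, which folds the myosin head, stood at 2.63, Smyd1, a methyltransferase needed for myosin assembly, at 2.16, and the Kelch proteins Klhl40 and Klhl41 at 2.90 and 1.66. The small heat shock genes Cryab, Hspb2 and Hspb1 reached 3.40, 3.52 and 2.31. The muscle ring-finger gene Trim54 stood at 5.43, its relative Trim63 at 1.41. Hsp90aa1, which works with Unc45b on myosin but also serves all cells, was at 882 UPM against 1728, a ratio of -0.97 (-1.04 to -0.90).

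Of the calcium-handling genes, 20 of 21 (of 23 listed) were at least 2-fold higher, with a median of 2.53. Triadin (Trdn), which ties calsequestrin to the calcium release channel, had 466 UMIs against 2 and a log2 ratio of 8.51 (6.65 to 11.56). It ranked first of the 6656 genes with a count of 0 set to 3, although its interval overlapped those of the next genes. It had 0 to 16 UMIs per Acta1-high cell with a median of 3, and at most 1 in a comparison cell. Its partners were less far apart. The calsequestrins Casq2 and Casq1 stood at 4.60 and 4.76, and the release channel Ryr1 at 1.58 (1.35 to 1.82), with 53.4 UPM in the comparison cells. The calcium pump Atp2a1 stood at 1.00 (0.85 to 1.16) and its inhibitor sarcolipin (Sln) at 4.78, with 1236 UPM against 45.0. The voltage sensor subunit Cacna1s, which triggers release, had 130 UMIs against 8 and its partner Stac3 a ratio of 1.50. Parvalbumin (Pvalb), a calcium buffer of adult fast fibres, had 1 UMI in the 122 cells. In cells without division transcripts the ratios of Atp2a1 and Stac3 were 0.31 and 0.74.

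**Figure D3:**
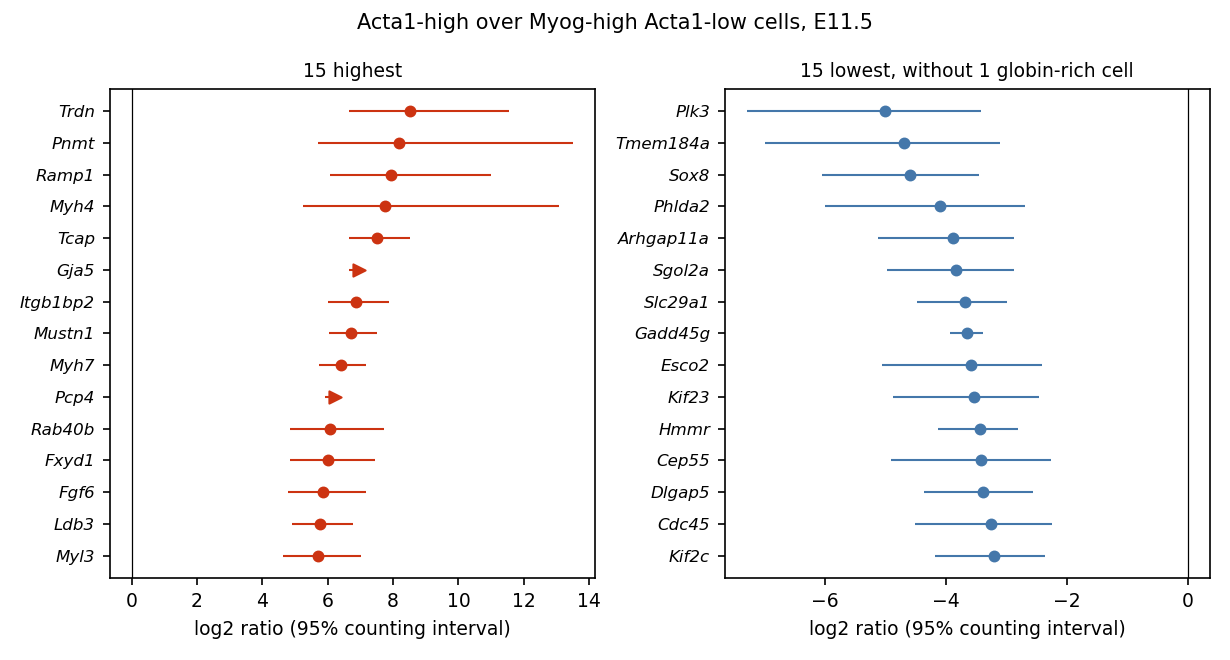
Log2 ratios with 95% counting intervals (lines) of the 15 highest genes (left, arrowheads are lower bounds against 0 UMIs) and of the 15 lowest genes without the 1 globin-rich comparison cell (right). Trdn leads on the left, and Plk3 on the right.

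Below Trdn, the highest ratios belonged to genes of several kinds. Pnmt, the enzyme that makes adrenaline from noradrenaline, had 186 UMIs against 1. It lies on chromosome 11 at 98386450 to 98388181 (GRCm38), 1496 bases after the end of Tcap on the same strand. Of the Acta1-high cells, 58 had UMIs of both genes, 55 of Tcap alone and 1 of Pnmt alone, and whether Pnmt UMIs came from Tcap transcripts was not tested. Ramp1, a partner of the calcitonin receptor-like receptor, had 314 against 2 (log2 ratio 7.94). The connexin Gja5, a gap junction protein known from atria and arteries, had 237 against 0 and a log2 ratio of at least 6.95 with the 0 set to 3 counts over the class, or 6.64 with the counting error of the 237 included. It was also present, at 32.5 UPM, in the 63 cells with at least 3 UMIs of the endothelial gene Cdh5 and none of Myog. The integrin-binding melusin (Itgb1bp2), the small nuclear protein Mustn1, the calmodulin regulator Pcp4, the GTPase Rab40b, the pump regulator Fxyd1, the growth factor Fgf6 and the slow light chain Myl3 completed the 15 with Myh4, Tcap, Myh7 and Ldb3. Their log2 ratios ran from 5.70 for Myl3 to 7.75 for Myh4, apart from Pcp4, which had 144 UMIs against 0. Its ratio was at least 6.23 with the 0 set to 3, or 5.91 with the counting error of the 144 included.

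At the lower end, 7 of the 15 genes were globins, and 1 comparison cell held 6196 of the 6422 globin UMIs of its class (96.5%). Without it the globin levels were 53.2 UPM in the comparison and 52.6 in the Acta1-high cells. The lowest ratios outside the globins belonged to Plk3, a stress-responsive kinase, with 3 UMIs against 152, Tmem184a with 3 against 120, and Sox8, a transcription factor of early muscle cells and other lineages, with 6 against 224. Next came the growth-restraining imprinted gene Phlda2 at -4.08, Arhgap11a and Sgol2a of dividing cells at -3.87 and -3.81, the nucleoside transporter Slc29a1 at -3.67, and Gadd45g, a growth-arrest gene, at -3.65. With the globin-rich cell left out, Esco2, Kif23, Hmmr, Cep55, Dlgap5, Cdc45 and Kif2c, all genes of DNA replication or mitosis, filled the other 7 places, at -3.58 to -3.20, and these 7 were named after their values were seen.

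The glycolysis and glycogen genes did not differ in one direction, and isoforms of some enzymes differed from each other. Of 21 glycolysis and glycogen genes counted (of 28 listed), 5 were at least 2-fold higher and 4 lower, with a median of 0.12. The muscle enolase Eno3 had 2 to 100 UMIs per Acta1-high cell (median 20) against 0 to 25 (median 2), a ratio of 2.61 (2.49 to 2.74), whereas the general Eno1 stood at 0.04 (-0.07 to 0.15). Muscle phosphoglycerate mutase Pgam2 stood at 2.88 and the general Pgam1 at -1.07, and muscle phosphofructokinase Pfkm at 3.02 and the liver type Pfkl at -0.95. With the median of all genes subtracted, Pgam1 was at -0.90. Muscle glycogen phosphorylase Pygm, which releases glucose units from glycogen, reached 4.60 and glycogenin (Gyg), which primes glycogen, 2.34. Gapdh and Ldha, shared by all cells, stood at 0.29 and 0.05, Aldoa at 0.77 and Pkm at -0.56. The glucose transporter Slc2a1 was at 11.7 UPM against 26.8, and the muscle hexokinase Hk2, which traps glucose, stood at -1.01, and at -0.85 with that median subtracted. In cells without division transcripts Hk2 was at 0.059.

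**Figure D4:**
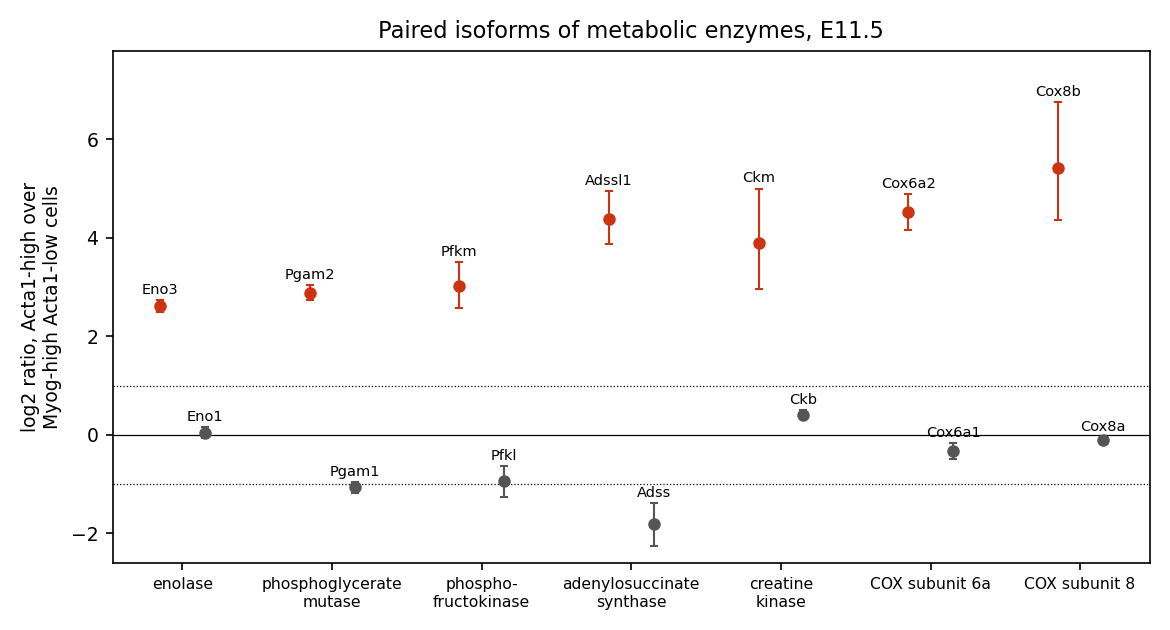
Log2 ratio (Acta1-high over Myog-high Acta1-low cells, with 95% counting intervals) of the muscle isoform (red) and the general or other-tissue isoform (grey) of 7 enzymes or subunits, with the 2-fold limits dotted. The pairs were chosen with their values known. The 7 muscle isoforms lie above 2, and the partners lie between -1.81 (Adss) and 0.41 (Ckb). Not shown are the muscle forms Hk2 (-1.01) beside Hk1 (-1.03) and Slc25a4 (0.36) beside Slc25a5 (-0.89).

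Isoforms also differed in energy storage and mitochondria. In the list of phosphocreatine and adenine nucleotides 5 of 9 genes counted (of 14 listed) were higher and 1 lower. Gamt and Gatm, which make creatine, stood at 2.68 and 1.23, and muscle creatine kinase Ckm had 95 UMIs against 10 (3.89), while the brain type Ckb was at 0.41. Muscle adenylosuccinate synthase Adssl1 had 428 UMIs against 32 (4.39) and its general relative Adss 52 against 286 (-1.81). In the list of mitochondrial and fatty acid metabolism 6 of 28 nuclear genes counted (of 32 listed) were higher and 0 lower, with a median of -0.10. They were the muscle cytochrome oxidase subunits Cox6a2 (4.52) and Cox8b (5.42), the oxygen carrier myoglobin Mb (4.53), the fatty acid binder Fabp3 (4.15), the fatty acid receptor Cd36 (3.11) and the fatty acid dehydrogenase Acadm (1.26). The partners Cox6a1 and Cox8a stood at -0.33 and -0.11. The 13 mitochondrially encoded genes were all within 2-fold, with a median of 0.15. The 7 isoform pairs in the plot of enzymes were chosen with their values known, so their separation is a description. Other pairs in the lists were closer. The muscle hexokinase Hk2 stood at -1.01 (-1.71 to -0.36) beside the general Hk1 at -1.03 (-1.98 to -0.17), the latter with 15 UMIs against 48 and so under the minimum, and the muscle form of the ADP/ATP carrier, Slc25a4, at 0.36 beside Slc25a5 at -0.89.

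At the surface membrane, 8 of 12 genes of the dystrophin complex, integrins and caveolae (of 20 listed) were higher and 0 lower. Dystrophin (Dmd), which links actin to the membrane, had 144 UMIs against 27 (3.06) and the muscle caveolin Cav3 350 against 16 (5.10). Dag1, the matrix receptor of the complex, was at 0.24 (-0.07 to 0.56) and utrophin (Utrn) at 0.47. Itgb1bp2, which binds the integrin β1 tail, stood at 6.86 and the integrin itself (Itgb1) at 1.02. Of the channels, pumps and connexins, 6 of 9 (of 19 listed) were higher and 1, the connexin Gja1 (27 UMIs against 97), lower. The connexin Gjd4 stood at 4.39 and the small GTPase Rrad, which restrains calcium channels, at 4.17. The adult sodium and chloride channels Scn4a and Clcn1 had 4 UMIs each in the 122 cells.

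Of the acetylcholine receptor and synapse genes, 4 of 8 counted (of 11 listed) were higher and 0 lower. The receptor subunits Chrna1 and Chrng, the latter the fetal subunit, stood at 1.32 (1.13 to 1.51) and 1.07 (0.83 to 1.31), the anchoring protein Rapsn at 1.28, and Chrnb1 at 0.44. Acetylcholinesterase (Ache), which ends the signal, differed most, with 243 UMIs against 9 and a ratio of 5.40 (4.45 to 6.55). The adult subunit Chrne had no UMI in either class, and the receptor kinase Musk stood at 0.09. In cells without division transcripts Chrna1, Chrng and Rapsn were at 0.66, 0.30 and 0.94.

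The fusion genes did not differ in one direction. Myomaker (Mymk) and myomixer (Mymx) are the membrane proteins that drive myoblast fusion. Mymk had 1 to 48 UMIs per Acta1-high cell with a median of 10, against 0 to 19 with a median of 3. Mymx had 0 to 29 with a median of 1, against 0 to 47 with a median of 12. The levels were 529 UPM against 212 for Mymk (log2 ratio 1.32, 1.20 to 1.44) and 221 against 699 for Mymx (-1.66, -1.79 to -1.53), so that Mymk was higher and Mymx lower in the Acta1-high cells, with overlapping ranges. In cells without division transcripts the Mymk ratio was 0.56, whereas Mymx was at least 2-fold lower under all 12 alternatives computed for single genes.

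Counted by cell, 46 of the 122 Acta1-high cells (37.7%, 29.1 to 46.9%) had Mymk without Mymx, against 7 of 222 comparison cells (3.15%, 1.28 to 6.39%). After thinning to 5000 UMIs the shares were 41.7% of 120 and 4.55% of 220. Mymx itself was seen in 46.7% and 78.6% of the thinned cells, and in 0 of 257 thinned Sox2-positive cells. The share without Mymx was thus larger among the Acta1-high cells at equal depth. Thinning evened depth but not Myog. The rule asked for at least 20 Myog UMIs in comparison cells but only 5 in Acta1-high cells. Among cells with under 10 Acta1 UMIs, Mymx was at 699 UPM with at least 20 Myog UMIs and at 36.5 with 5 to 19. The part of Myog in the difference between the classes was not tested. In the whole fusion and adhesion list, 5 of 17 genes counted (of 25 listed) were higher and 4 lower. That is 29.4% and 23.5%, against 9.34% and 9.6% of all genes counted. Tmem182, a muscle membrane protein, stood at 5.27, cadherin 11 (Cdh11) at 1.94, Jam2 at 1.92 and Myof, a membrane-repair protein, at 1.65. The tetraspanin Cd82 was at -1.98, Cdh4 at -1.68 and the fusion signal protein Dock1 at -1.43, while M-cadherin (Cdh15) stood at -0.06 (-0.19 to 0.07).

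Regulators were split. Of 35 counted (of 51 listed), 6 were at least 2-fold higher and 6 lower, with a median of -0.27. The share was 17.1% in each direction, against 9.34% higher and 9.6% lower over all genes counted, whose median was -0.16. Mef2c, a MADS-box activator of sarcomere genes, had 1 to 114 UMIs per Acta1-high cell (median 34.5) against 0 to 44 (median 3), a ratio of 2.64 (2.54 to 2.73). Its relative Mef2a stood at -1.09 (-1.27 to -0.91), and at -0.93 with the median of all genes subtracted, and Mef2d at -0.27. The retinoid X receptor Rxrg had 0 to 20 UMIs (median 5) against 0 to 3 (median 0), a ratio of 4.16 (3.80 to 4.54), while Rxrb was at -0.13. Rxra had 37 UMIs against 39, under the minimum of 100. The LIM protein Lmo7 (5.07), Myf6 (3.32) and the long non-coding RNA Trp53cor1 (3.62) were also at least 2-fold higher. On the lower side stood Sox8 (-4.58), Eya2 (-2.17), Six4 (-1.77), Id2 (-1.22), an inhibitor of E-box factors, and Mef2a.

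Of the muscle determination factors, Myod1 and Myf5 were both within 2-fold. Myod1 had 0 to 38 UMIs per Acta1-high cell (median 12) against 0 to 58 (median 17), a ratio of -0.80 (-0.88 to -0.72). Myf5 was seen in 60.7% of Acta1-high and 22.5% of comparison cells, but in 19.2% and 14.1% at equal depth, with a ratio of 0.78 (0.46 to 1.10). The progenitor factor Pax7 had 10 UMIs against 85, under the minimum of 100. RNA-binding proteins were mostly level. The splicing kinase Srpk3 (3.05), the muscle deaminase family member Apobec2 (2.75) and Rbfox1 (1.07) were higher and the splicing repressor Ptbp1 (-1.17) lower, of 15 counted (of 19 listed).

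Of the signals, receptors and imprinted genes, 9 of 26 counted (of 33 listed) were higher and 6 lower. That is 34.6% and 23.1%, against 9.34% and 9.6% of all genes counted. The imprinted ligand Dlk1, a Notch-family relative, had 0 to 124 UMIs per Acta1-high cell (median 24.5) against 0 to 27 (median 1), a ratio of 3.91 (3.77 to 4.06), and the imprinted RNA Meg3 of the same cluster stood at 2.32. The secreted factors Il17b (2.73), Fgf6 (5.85), Fgf7 (2.94), nephronectin (Npnt, 4.17) and the growth inhibitor myostatin (Mstn, 1.52) were higher. Fgf4, another growth factor, had 66 UMIs against 0, under the minimum of 100. The 6 lower genes were the following. Notch1 and Notch3 stood at -1.74 and -1.15, with Notch2 at 80 UMIs against 288. With the median of all genes subtracted, Notch3 was at -0.98. The Notch ligand Dll1 stood at -1.59, the Notch target Heyl at -2.75 and the growth factor receptor Fgfr1 at -1.38. Within 2-fold were Hes1 (-0.70) and the receptors Igf1r (-0.39) and Igf2r (0.81), while Jag2 had 24 UMIs against 8, under the minimum. Igf2 and H19, imprinted neighbours, stood at 0.83 and 0.60.

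The genes of DNA replication and mitosis were lower in the Acta1-high cells throughout, 23 of 23 counted (of 25 listed), with a median of -2.44. Top2a, which untangles DNA in dividing cells, had 127 UMIs against 1445 (-2.86). A UMI of Mki67, Top2a or Cdk1 occurred in 45 Acta1-high cells (36.9%) and 141 comparison cells (63.5%). Among the 77 and 81 cells without one, Ccnb1 and Aurka stood at 0.38 and 0.64. Those cells were chosen for lacking division transcripts. Both genes are named because their direction changed there, and of this list only they are among the reversals given at the end. Of the 12 genes of cell cycle exit counted (of 15 listed), 1 was at least 2-fold higher and 2 lower. The shares were 8.33% and 16.7%, from only 12 genes, against 9.34% and 9.6% of all genes counted. The inhibitor Cdkn1a was at 1072 UPM against 888 (0.27) and Cdkn1c at 7576 against 11280 (-0.57), and Gadd45g was at -3.65 and Btg2 at -1.21, while Gadd45b, of the same family, stood at 1.89. Of the 82 cytosolic ribosomal protein genes counted, 0 were past 2-fold in either direction. They took 20.1% of UMIs against 23.6%.

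Along the Acta1 count the genes followed different courses. The 494 kept cells with at least 5 Myog UMIs were grouped by Acta1 UMIs into 332 cells with under 10, 40 with 10 to 29, 51 with 30 to 99, 49 with at least 100 but under 300, and 22 with 300 or more. Mylpf was at 743, 7766, 13092, 17384 and 25119 UPM from the first group to the last, Tnnc2 at 114, 1866, 3753, 4813 and 6501. Ttn was at 689, 3954, 4999, 4264 and 4013, highest in the third group, whereas Mylpf was higher in each group than in the one before. The order of Acta1 itself follows from the grouping. Mymx was highest with 10 to 29 Acta1 UMIs, at 886 UPM (90.0% of cells), and lower on both sides, at 468 before it and at 424, 124 and 108 after it. Mymk was at 144, 468, 444, 522 and 663. Myog and Cdkn1a, like Mymx, were highest in the second group, at 4137 and 1866 UPM. The first group joined the 222 Myog-high Acta1-low cells and 110 cells with 5 to 19 Myog UMIs. Mymx was at 699 UPM in the former and 36.5 in the latter. Myog, which chose these cells, was at 3376.5 and 489. Rxrg (15.2, 93.1, 230, 284 and 356) and Trdn (0.304, 38.7, 122, 170 and 238) were higher in each group than in the one before. Top2a was at 358 in the first group and 9.28 in the last. Median depth was 17895, 15975.5, 16695, 22294 and 27781.5 UMIs, so cells of the last groups were also the deepest.

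**Figure D5:**
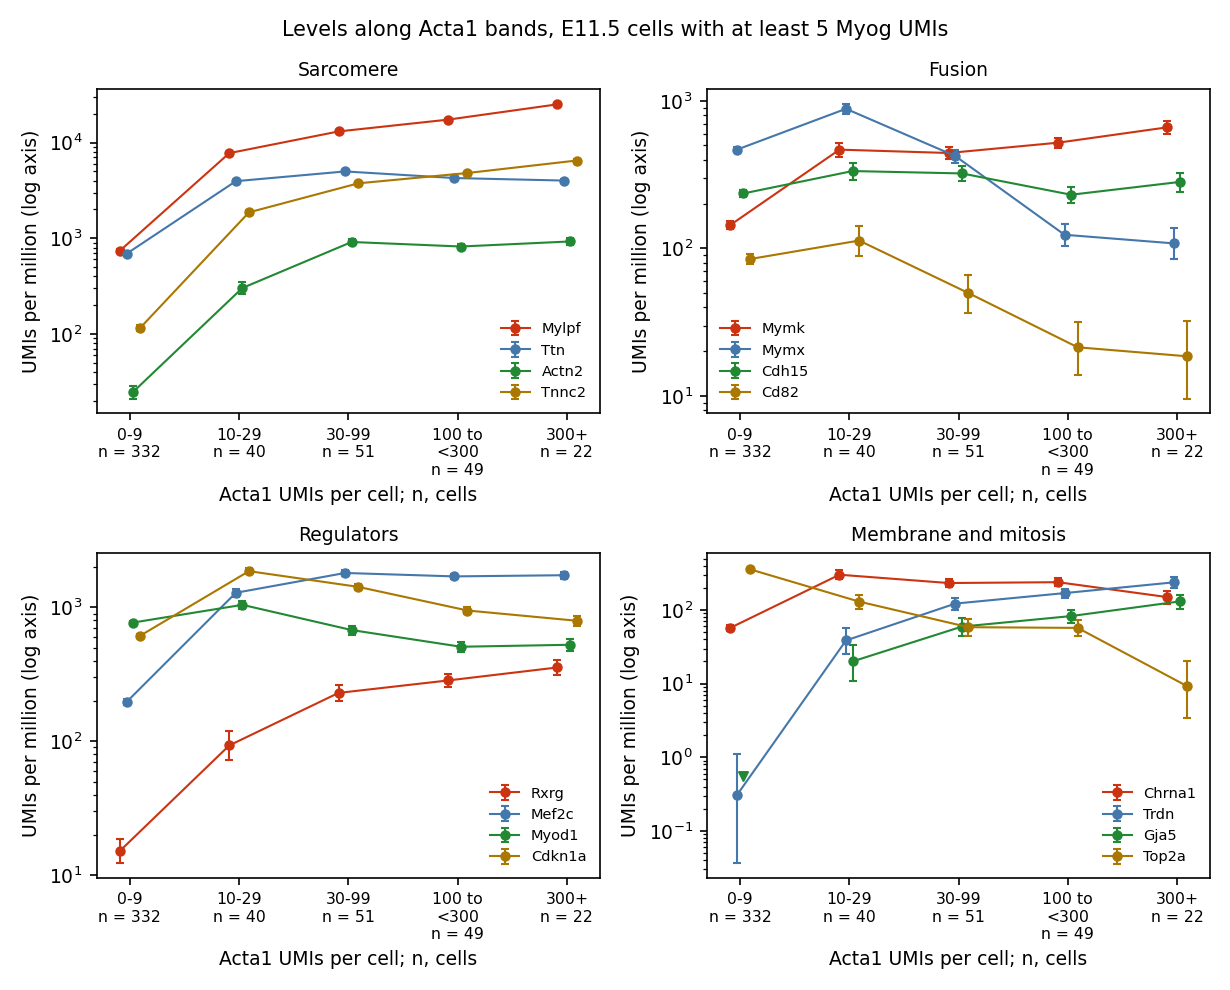
Levels (UPM, logarithmic axis, with 95% Poisson intervals) of 16 genes in 5 groups of E11.5 cells with at least 5 Myog UMIs, by Acta1 UMIs per cell. Mymx and Cdkn1a are highest with 10 to 29 Acta1 UMIs, and Mylpf, Tnnc2, Rxrg and Trdn in the last group. The triangle is the upper limit of Gja5 where it had no UMI.

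Within the 122 Acta1-high cells, the level of Acta1 per cell varied with that of other genes. As a description over cells that share a library, Spearman's rho with Acta1 was 0.67 for Mylpf, 0.66 for Dlk1, 0.65 for Myl4, and 0.62 for both Tnnc1 and Tagln, an actin-binding protein known from smooth muscle. It was 0.06 for Myh3, -0.16 for Ttn, -0.08 for Actc1 and 0.00 for Chrng, so that not all sarcomere genes followed Acta1 from cell to cell. It was -0.44 for Mymx and 0.25 for Mymk. Chosen after their values were seen, Tmsb10, which binds free actin, had a rho of 0.66, and the non-muscle actins Actb and Actg1 -0.47 and -0.45. The rho of total UMIs per cell with Acta1 was -0.02.

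Markers of other tissues were at low levels in most lists, apart from smooth muscle, and their part in the differences above was not tested. In the Acta1-high cells the 12 neural genes summed to 58.0 UPM (159 UMIs, the most abundant being Tubb3 with 62), against 55.1 in the comparison and 1376 in the Sox2-positive cells. Sox2 itself had 23 UMIs in 4.92% of the cells, 12 of them in 1 cell, and Olig2 was at 0. The 10 endothelial genes summed to 7.66 UPM against 7.47, with Egfl7 the most abundant and Tek, Tie1, Emcn, Esam, Plvap and Cldn5 at 0. The 12 blood genes summed to 52.6 UPM against 1504, most of the latter from the globin-rich cell, and were led by Hbb-y. Of the others, Alas2, Ptprc, Fcer1g and Tyrobp were among those at 0. The 8 cartilage genes in the file summed to 52.6 UPM against 96.6 (Sox9 the most abundant, Nkx3-2, Acan and Matn1 at 0, and Col2a1 with 48 UMIs against 208). The 13 genes of mesenchyme, dermis and tendon summed to 280 UPM against 357 (Col3a1 the most abundant, none at 0) and the 8 epithelial genes to 6.20 UPM against 11.4 (Krt8 the most abundant, Krt5, Krt14, Cdh1, Cldn6 and Cldn7 at 0). The 10 heart genes summed to 24.5 UPM against 8.40, led by Myl7 with 50 UMIs, 34 of them in 1 cell, and Nkx2-5, Nppa, Nppb and Tbx20 were at 0. The 8 smooth muscle genes stood at 6545 UPM against 1949, none at 0. Most of the sum was Acta2 and Tagln, the latter at 1291 UPM against 36.4. The actin-binding smoothelin (Smtn) was also higher, with 248 UMIs against 101 (log2 ratio 1.94, 1.60 to 2.29). Cnn1 had 10 UMIs against 1, and Myh11, the defining myosin of smooth muscle, 2 against 0.

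The 5 cells that met the rule at E9.5 held 132047 UMIs, and 3.62% of them came from the sarcomere lists, Acta1 included. Mylpf was at 3385 UPM, Tnnc2 at 2545, Ttn at 2249 and Actn2 at 22.7 (3 UMIs). Myod1 and Myh8 had no UMI there, against 569 and 286 UPM in the E11.5 cells, and Myf5 was at 197 against 62.8 UPM. With so few cells these values are given side by side only.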

How the data were processed

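The authors deposited, for each of the 2 stages, a matrix of raw UMI counts per gene and barcode made with Cell Ranger 3.0.1 against mm10, per the labels and the study's methods, with 27998 genes listed. Cell Ranger counts uniquely assigned reads, so near-identical genes such as the actins are uncertain. Barcodes were kept with at least 1000 and under 6500 genes and under 15% mitochondrial UMIs, which removed 944 at E11.5. No doublet was removed. Scrublet (scanpy 1.11.5, expected rate 8%) called 407 of 10167 E11.5 barcodes (4.00%), and leaving those out was an alternative.

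UMIs were summed per class and divided by the total of the class. Intervals are 95% and exact (Poisson for levels, conditional binomial for ratios, Clopper-Pearson for shares of cells), made with Python 3.11.15, numpy 2.4.6, scipy 1.17.1 and pandas 2.3.3. They cover counting error only. A count of 0 was set to 3 for a bound. Shares of cells were also taken after thinning to 5000 UMIs, which left out 2 Acta1-high, 2 comparison and 4 Sox2-positive cells. On simulated counts for the 6656 genes of the main comparison, 200 of them changed 4-fold, 100% of the changed and 0% of the other genes were counted as past 2-fold. This checks the code under counting noise alone, not differences between cells or libraries.

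The genes named are the 15 highest and 15 lowest ratios and members of gene lists (in full the 4 most abundant and those past 2-fold), unless said otherwise. The members and lists were chosen with earlier results of these data known. Tmem8c and Gm7325 in the files are written Mymk and Mymx. Promoter windows are from RefSeq (GRCm38.p6), where 468 of the 622 genes at least 2-fold higher had one. Alternatives tried were other denominators, thinning, cell means, other limits on Acta1, Myog, genes and UMIs, and leaving out doublet calls, cells with division transcripts and, added after the data were seen, cells with 20 or more globin UMIs. Some members of the lists are counted with them but not reported singly here.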

Additional observations from a re-analysis of the deposited data

How the results depend on the processing

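The counts of genes at least 2-fold higher and lower (622 and 639 of 6656) stayed within 1.5 times of themselves with other denominators, cell means, other limits on Acta1, Myog or genes per cell, cells of 10000 to 30000 UMIs, and without doublet calls or globin-rich cells, and moved in 4 other settings. Thinning to 5000 UMIs gave 187 and 222 (of 2448 genes that then reached 100 UMIs), cells without UMIs of Mki67, Top2a and Cdk1 gave 325 and 161 (of 3451), a minimum of 20 UMIs gave 1236 and 1200, and a minimum of 500 gave 162 and 174. The first and the last leave fewer genes to count by construction. The cause of the lower count in cells without division transcripts was not tested, and fewer cells were also left there (77 and 81). The share of genes past 2-fold that were higher was 49.3% in all cells, 61.4% with the median subtracted, 58.7% with the sarcomere lists out of the denominator, which shifted all genes by 0.13 (log2), and 66.9% in cells without division transcripts. The share of cells in the class was 1.07% with at least 60 Acta1 UMIs.

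Of 205 named or listed genes past 2-fold, 199 kept their direction and 165 stayed past 2-fold under all 12 alternatives. The reversals were these log2 ratios, whose cause was not tested. Without doublet calls Hba-x was at 0.73 and Hbb-bt at 0.15. In cells without division transcripts Hk2 was at 0.059, Ccnb1 at 0.38, Aurka at 0.64, Hba-x at 0.92 and Hbb-bt at 0.059. In cells with 10000 to 30000 UMIs Hba-x was at 0.64 and Hbb-y at 0.044, and with under 20 globin UMIs, chosen after seeing the data, Hba-x was at 0.58 and Hbb-bt at 0.27. No paired analysis was possible because each stage has 1 library, which also leaves no replicate to leave out.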
